A study of Mus musculus with 4 samples.

Results

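The genes described here encode the extracellular matrix of the liver, the receptors that bind it and the enzymes that cut it: collagens, laminins, nidogens, perlecan, fibronectin, integrins, matrix proteases and their inhibitors. They were taken from the deposited gene table by their symbols, and 66 of the 7000 genes listed (0.943%) matched. Of these, 64 encode matrix proteins, matrix enzymes, their inhibitors or integrin chains. The remaining pair, Col4a3bp and Itgb3bp, matched by name only, since they encode a ceramide transfer protein and a centromere protein. RNA-Seq was performed on livers of male wild-type FVB/N mice fed from weaning, for 6 weeks, a Se-deficient torula yeast diet supplemented with 0 ppm Se ("0 Se", 2 mice) or with 0.1 ppm Se as sodium selenite ("0.1 Se", 2 mice). The mice carried no transgene or deletion.

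Collagens are triple helices built from chains in which glycine recurs at every Gly-X-Y step. Types I, III and V form fibrils, type IV forms the sheet of the basement membrane, and types XV and XVIII are basement membrane collagens that carry sugar chains. Laminins are trimers of an alpha, a beta and a gamma chain, and nidogens and perlecan link them to type IV collagen. Integrins are pairs of an alpha and a beta chain that hold cells to these proteins. In healthy liver the matrix is sparse, most fibrillar collagen is made by stellate cells and portal fibroblasts, and hepatocytes secrete plasma fibronectin and are a main source of type XVIII collagen.

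The study asked how gene expression differs between the diets, but that question was not addressed here for these genes. The table gives each gene 1 level, the log2 of its mean CPM (read count scaled to library size) over the 4 libraries of both diets, and it has 0 columns named for a single mouse. The values below are therefore the authors' means, without a spread between mice and without a test, and the depth of each library is unknown. A difference between genes is given as a description. Levels were compared between genes per kilobase of the deposited mRNA length (CPM per kb). The listed genes are also those with the smallest p-values in the authors' comparison of the diets, so a gene that is not listed was either not tested or had a larger p-value, and its absence does not show that it was not expressed. In whole liver, fewer cells of a type and less RNA per cell cannot be told apart.

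Short stretches of coding sequence show what the main protein groups share. They are from GENCODE vM1 mRNAs on NCBIM37 (the same assembly as mm9), with codons counted from the start codon. In the collagens, capitals mark the first codon of each Gly-X-Y triplet, which encodes glycine. In Col3a1, gga and ggt in small letters encode glycine too, at position Y. Each stretch is the start of the longest unbroken run of Gly-X-Y triplets. The run begins at codon 164 of Col3a1, codon 97 of Col1a2 and codon 43 of Col4a1.
Col3a1: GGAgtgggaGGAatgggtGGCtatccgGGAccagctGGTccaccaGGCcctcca
Col1a2: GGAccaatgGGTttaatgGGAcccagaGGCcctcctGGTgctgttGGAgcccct
Col4a1: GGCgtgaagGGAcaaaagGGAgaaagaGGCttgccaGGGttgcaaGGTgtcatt
In fibronectin the capitals mark the Arg-Gly-Asp codons, the sequence that several integrins recognize. It was found at codon 1614 and again at codon 2181 of Fn1. Some other members held Arg-Gly-Asp too, with more matches in Col4a2 and Col5a2 than in Fn1. Whether any match binds an integrin was not tested.
Fn1 at codon 1614: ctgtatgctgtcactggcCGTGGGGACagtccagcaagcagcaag
Fn1 at codon 2181: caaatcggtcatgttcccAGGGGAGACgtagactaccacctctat
In the metalloproteases the capitals mark the histidine codons of the zinc-binding signature of the catalytic site.
Mmp14: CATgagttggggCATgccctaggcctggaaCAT
Mmp2: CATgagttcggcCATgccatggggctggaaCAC
Adamts13: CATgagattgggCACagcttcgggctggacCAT
Adamts1: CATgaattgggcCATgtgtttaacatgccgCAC

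Matrix mRNAs were long and, as a group, low. Their median length was 5354.5 bases, against 2959.5 bases for all listed genes, and 60 of the 66 were longer than that median. The shortest was Lum at 2075 bases and the longest Hspg2 at 14177 bases. The median level was 7.92 CPM, against 18.7 CPM for all listed genes. Per length the gap was wider, at 1.19 against 6.19 CPM per kb, and 11 of the 66 were above the median of all listed genes. By number, 39 were under 10 CPM, 24 were between 10 and 100 CPM, and 3 were over 100 CPM. The levels summed to 3425 CPM, of which Fn1 and Col18a1 made up 73.2%.

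**Figure D1:**
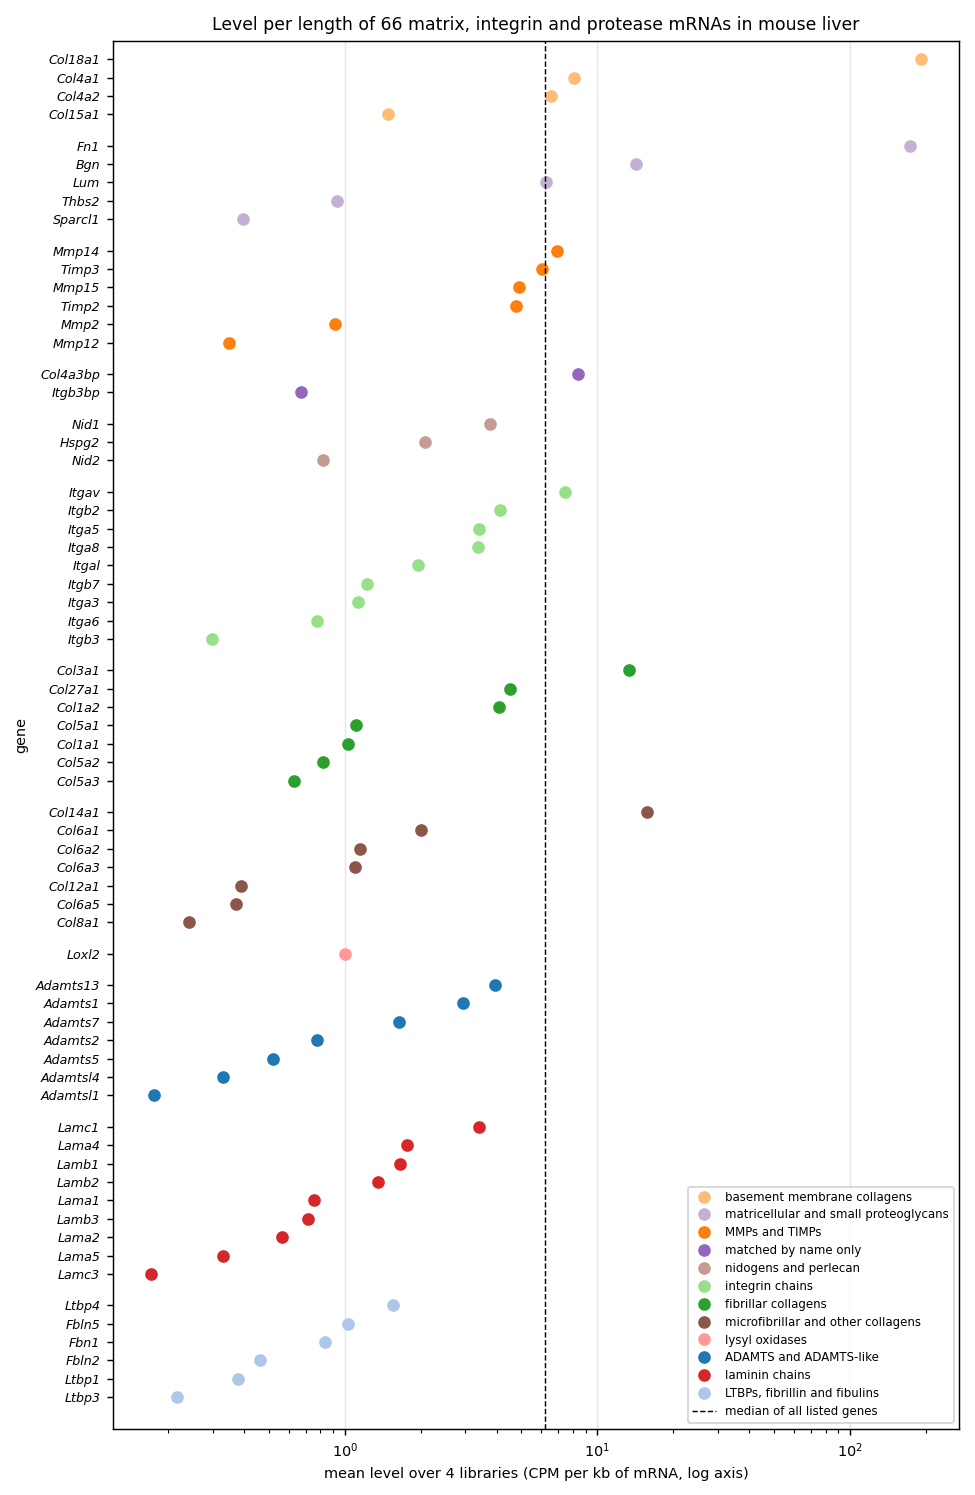
Mean level of each of the 66 genes over the 4 libraries, in CPM per kb of mRNA on a log axis. Each point is 1 gene, colours mark the class, and the dashed line is the median of all listed genes (6.19 CPM per kb). Col18a1 and Fn1 stand far to the right of the others. Of the 66 points, 11 lie right of the line. Most genes lie left of it, among them all laminin chains and latent TGF-beta binding proteins.

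Since long mRNAs yield more fragments, each gene was also set against the other listed genes whose mRNA was within 10% of its length, of which there were 33 to 841 per gene. On the log2 CPM scale the median difference was -1.59. By construction the reference genes lie equally above and below their median, whereas 17 of the 66 genes were above it and 49 were below. Without Col4a3bp and Itgb3bp, 16 of 64 were above. Of the 66, 2 were more than 4-fold above and 27 more than 4-fold below. The share of other listed genes more than 4-fold from the median of their length was not computed. These 4-fold counts therefore do not show whether matrix genes lie that far off more often than other genes.

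**Figure D2:**
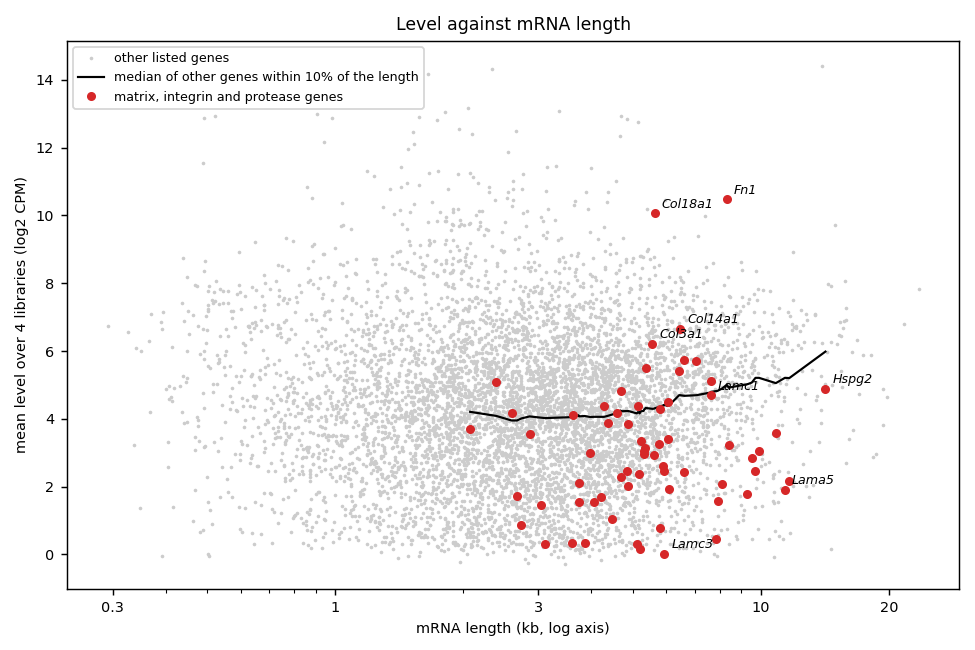
Mean level over the 4 libraries (log2 CPM) against mRNA length (kb, log axis), for other listed genes (grey points) and the 66 matrix, integrin and protease genes (red points). The black line joins the medians of other genes within 10% of each red point's length, and 49 of the 66 red points lie below it.

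Fn1 and Col18a1 were the pair more than 4-fold above. Fn1 encodes fibronectin, the glycoprotein that joins cells, collagen and fibrin. It lies on the minus strand of chromosome 1 (chr1:71632094-71699774, NCBIM37) with 46 exons, and its level was 1433 CPM, or 172 CPM per kb. This was 44.6 times the median of mRNAs of similar length, and all 230 of those mRNAs were lower. Col18a1, which encodes the type XVIII collagen chain that is the source of endostatin, lies on the minus strand of chromosome 10 (chr10:76514923-76629293). Its level was 1074 CPM or 191 CPM per kb, the highest per length of the 66, and 54.1 times the median of mRNAs of similar length. The next members per length were Col14a1 at 15.7 CPM per kb and Bgn at 14.2 CPM per kb, so the step below Fn1 was the widest in the order.

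Among the fibrillar collagens, Col3a1 was the highest at 74.4 CPM (13.4 CPM per kb), 3.79 times the median of mRNAs of similar length. It encodes the only chain of type III collagen, the reticular fiber collagen, and lies on the plus strand of chromosome 1 (chr1:45368383-45406551) with 51 exons. Col27a1 had a level of 4.52 CPM per kb and Col1a2, a chain of type I collagen, 4.07 CPM per kb. The lowest were the type V chains Col5a1 (1.11 CPM per kb), Col5a2 (0.823 CPM per kb) and Col5a3 (0.628 CPM per kb), with Col1a1 between them at 1.03 CPM per kb. Of these 7 genes, 3 were above the median of mRNAs of similar length. Col3a1 and Col5a2 lie tail to tail, 24.6 kb apart, with levels of 13.4 and 0.823 CPM per kb.

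In the basement membrane collagens, 3 of 4 genes were above mRNAs of similar length. Besides Col18a1 these were Col4a1 at 53.5 CPM (8.09 CPM per kb) and Col4a2 at 42.3 CPM (6.58 CPM per kb), the chains of the common type IV collagen. Col15a1 was lower at 1.48 CPM per kb. The other type IV chains, Col4a3, Col4a4, Col4a5 and Col4a6, were not listed.

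Col4a1 and Col4a2 lie head to head on chromosome 8, and their gene models overlap by 22 bases (Col4a1, minus strand, chr8:11198423-11312826, and Col4a2, plus strand, chr8:11312805-11449287, NCBIM37). The RefSeq promoter windows, from 250 bases before to 50 bases after the start site, share 78 bases with a GC content of 73.1%. The window of Col4a1 (GRCm38.p6, minus strand, chr8:11312777-11313076) is shown because both genes start within it and their levels per length were near each other. Capitals mark the bases shared with the window of Col4a2 (plus strand, chr8:11312555-11312854).
Col4a1 promoter: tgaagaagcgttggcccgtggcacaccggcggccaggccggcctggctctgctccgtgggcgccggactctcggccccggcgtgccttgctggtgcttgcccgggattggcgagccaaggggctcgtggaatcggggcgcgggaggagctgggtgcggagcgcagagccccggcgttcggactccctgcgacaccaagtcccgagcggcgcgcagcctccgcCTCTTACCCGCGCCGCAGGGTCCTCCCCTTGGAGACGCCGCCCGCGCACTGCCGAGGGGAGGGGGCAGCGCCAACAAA
Both windows held GGGCGG and CCAAT on either strand, and neither held TATAAA or TGANTCA. RefSeq windows were found for 44 of the 66 genes (53 windows), and were compared with all 32817 windows. GGGCGG was in 66.0% of the matrix windows and 35.6% of all windows, CCAAT in 26.4% and 37.4%, TATAAA in 7.55% and 13.6%, and TGANTCA in 7.55% and 7.81%. These shares describe letters only, and windows of a gene overlap in part. No share was computed for the windows of all listed genes, so whether a difference is particular to matrix genes is not shown.

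In the class of microfibrillar and other collagens, Col14a1, whose product binds fibrils to the surrounding matrix, had 101 CPM (15.7 CPM per kb) and was 3.89 times the median of mRNAs of similar length (chr15:55139305-55352358, plus strand, 48 exons). The other 6 were below that median, from Col6a1 at 2.01 CPM per kb to Col8a1 at 0.242 CPM per kb. Of the chains of type VI collagen, the beaded filament collagen, Col6a1 was highest, Col6a2 had 1.15, Col6a3 1.10 and Col6a5 0.371 CPM per kb. Col6a2, Col6a1 and Col18a1 follow each other on the minus strand of chromosome 10, with 85.2 kb and 326 kb between them.

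The longest unbroken Gly-X-Y run set the fibrillar collagens apart from the other 2 collagen classes, which overlapped. It was 337 to 344 triplets in Col1a2, Col3a1, Col5a1, Col5a2 and Col5a3, and 217 triplets in Col27a1. In Col4a1 it was 40 and in Col4a2 66 triplets, the helix of type IV collagen being interrupted, and in Col6a1 and Col6a2 it was 87. Length of the run did not order the levels: Col14a1, the highest of these 15 genes per length, had 32 triplets, and so did Col12a1 at 0.387 CPM per kb.

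**Figure D3:**
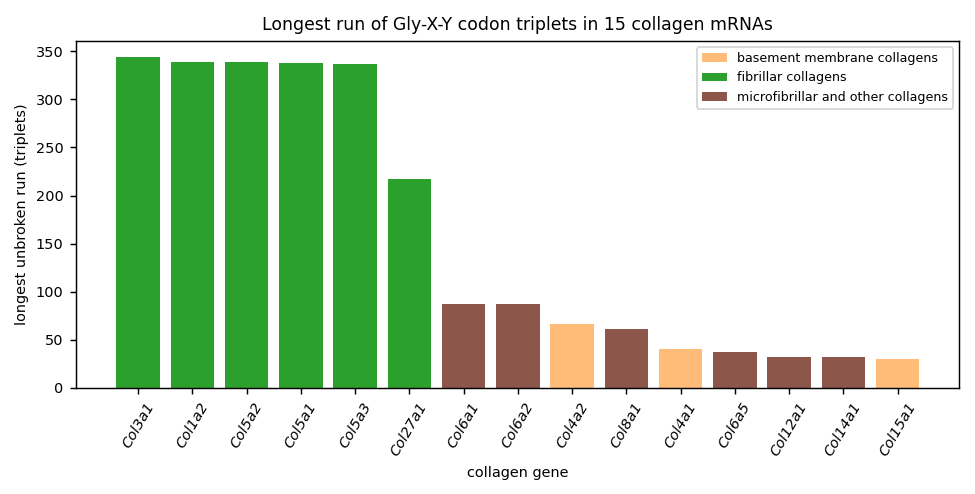
Longest unbroken run of Gly-X-Y codon triplets (bars, in triplets) in the 15 collagen mRNAs with a matched GENCODE transcript. Colours mark the class, and the bars of the fibrillar collagens, from 217 to 344 triplets, are all longer than those of the others, which reach 87.

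All 9 laminin chains were below the median of mRNAs of similar length, with a median difference of -2.22 on the log2 CPM scale. Lamc1, the gamma chain of most laminins, was the highest at 26.0 CPM (3.42 CPM per kb). Among the alpha chains, which carry most cell-binding sites, Lama4 was highest at 1.76 CPM per kb, followed by Lama1 (0.756), Lama2 (0.566) and Lama5 (0.331 CPM per kb). Lamb1 had 1.66 and Lamb2 1.36 CPM per kb, with Lamb3 at 0.719 CPM per kb. Lamc3 was the lowest of the 66 on both scales, at 1.02 CPM and 0.172 CPM per kb (chr2:31742811-31802059, plus strand, 28 exons). None of the 464 mRNAs of similar length was lower. The authors had removed genes of low CPM, and the lowest of all listed genes had 0.830 CPM, so Lamc3 lies near the floor of the listed levels. Nid1, a nidogen, had 3.75 CPM per kb and was close to mRNAs of similar length, whereas Nid2 had 0.824 CPM per kb. Hspg2, which encodes perlecan, had 29.6 CPM, but its mRNA is so long that this was 2.09 CPM per kb, and it could be set against 33 mRNAs only.

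Of 22 pairs of chains known to assemble with each other, 10 had both members listed. The type IV chains differed by a ratio of 1.23 (Col4a1 over Col4a2), Col5a1 over Col5a2 by 1.34, Col6a3 over Col6a2 by 0.952 and Col6a1 over Col6a2 by 1.74. The chains of type I collagen were farther apart than these on the deposited lengths, but not with the coding length of the transcript nearest in length. There Col1a1 over Col1a2 was 0.240 and Col6a1 over Col6a2 4.53, but that rule chose a short isoform of Col6a1. With a transcript within 10% of the deposited length, Col6a1 over Col6a2 was 1.88, and Col1a1 had no such transcript. The type I trimer usually holds more chains from Col1a1 than from Col1a2, but Col1a1 had 4.84 CPM (1.03 CPM per kb) and Col1a2 20.9 CPM (4.07 CPM per kb), so Col1a2 was 3.95 times Col1a1 per length. Lamc1, the gamma chain of most laminins, exceeded each alpha and beta chain paired with it, taken singly. It was 1.94 times Lama4, 2.06 times Lamb1, 2.51 times Lamb2 and 10.3 times Lama5. The levels of its partners were not added up, so no excess over all of them together is shown. The leukocyte integrin chain Itgal was 0.471 times its partner Itgb2. None of these ratios has an error.

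**Figure D4:**
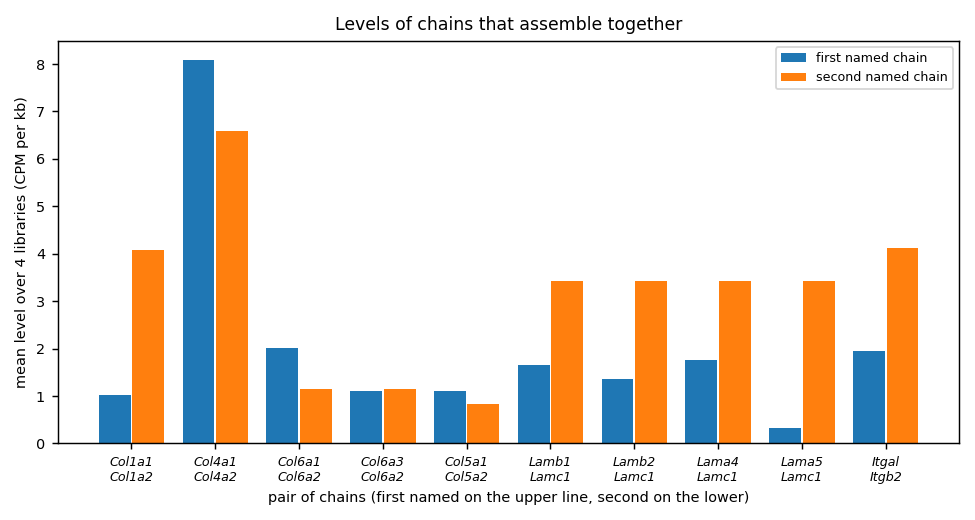
Mean level over the 4 libraries (CPM per kb, bars from 0) of the 10 pairs of chains with both members listed, the first named chain in blue and the second in orange. Col1a1 is far lower than Col1a2, and Lamc1 is higher than each of the 4 partners shown, taken singly.

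Integrin chains were mostly below mRNAs of similar length, with 1 of 9 above. That was Itgav, the alpha chain of receptors for vitronectin and fibronectin, at 52.3 CPM (7.41 CPM per kb). Itga5, the alpha chain of the main fibronectin receptor, had 3.40 CPM per kb and Itga8, which also recognizes Arg-Gly-Asp, 3.37 CPM per kb. Itga3 and Itga6, the alpha chains of laminin receptors, were lower at 1.13 and 0.778 CPM per kb. Itgb2 and Itgal, chains of leukocyte integrins, had 4.13 and 1.94 CPM per kb, Itgb7 had 1.23 CPM per kb, and Itgb3 was the lowest at 0.298 CPM per kb. Itgb1, the common beta partner of most of these alpha chains, was not listed, so no pair with it is given.

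Among the metalloproteases, the membrane-bound Mmp14 and Mmp15 had 6.89 and 4.90 CPM per kb, and were above mRNAs of similar length. Secreted Mmp2, a gelatinase, had 0.912 and Mmp12, the macrophage elastase, 0.349 CPM per kb. The inhibitors Timp3, which is held in the matrix, and Timp2 had 6.04 and 4.78 CPM per kb. In the ADAMTS class, Adamts13, the protease that cuts von Willebrand factor and is made by stellate cells, was highest at 18.1 CPM (3.95 CPM per kb), equal to 1.01 times the median of mRNAs of similar length. Adamts1 had 2.94, Adamts7 1.65, the procollagen protease Adamts2 0.779 and the aggrecanase Adamts5 0.523 CPM per kb. Adamtsl4 and Adamtsl1, which are related proteins without a protease domain, were lowest at 0.329 and 0.176 CPM per kb. The zinc-binding signature was found in the coding sequence of Mmp2, Mmp12, Mmp14, Mmp15, Adamts1, Adamts5, Adamts7 and Adamts13, and not in Adamtsl1 or Adamtsl4. Adamts2 had no matched transcript.

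The genes of elastic microfibrils were the lowest class against length, with 0 of 6 above and a median difference of -2.62 on the log2 CPM scale. Ltbp4, a latent TGF-beta binding protein, had 1.56 CPM per kb, Fbln5 1.03, Fbn1, which encodes fibrillin, 0.833, Fbln2 0.464, Ltbp1 0.378 and Ltbp3 0.216 CPM per kb. Loxl2, the only lysyl oxidase listed of 5 in RefSeq, cross-links collagen and had 1.01 CPM per kb. Of the small proteoglycans that bind collagen fibrils, Bgn (biglycan) had 33.9 CPM (14.2 CPM per kb) and Lum (lumican) 13.0 CPM (6.28 CPM per kb). Thbs2 had 0.930 and Sparcl1 0.396 CPM per kb. Of the genes matched by name only, Col4a3bp had 8.39 and Itgb3bp 0.669 CPM per kb.

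The symbols also match 166 protein-coding mouse genes in RefSeq, of which 65 were listed under the same symbol. By family, 18 of 44 were listed for collagens, 9 of 11 for laminins and 9 of 27 for integrins. For MMPs it was 4 of 23, for TIMPs 2 of 4, for ADAMTS proteases 5 of 19 and for thrombospondins 1 of 4. The share listed of all RefSeq protein-coding genes was not computed. These counts therefore do not show whether a family was listed more or less often than other genes. Genes not listed include Mmp9, Timp1, Lox and Thbs1.

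Genes that work with the matrix were looked up from lists. Of 19 genes that process collagen, 9 were listed, with a median of 7.33 CPM per kb. P4hb, a subunit of prolyl hydroxylase that is also a general disulfide isomerase, had 575 and Ppib, a cyclophilin, 151 CPM per kb, whereas the collagen chaperone Serpinh1 had 6.05 CPM per kb. Of 14 genes of the integrin adhesion complex, 9 were listed with a median of 7.39 CPM per kb, led by Fermt2 (kindlin-2) at 41.8 CPM per kb. Of 10 TGF-beta ligands, receptors and related genes, 8 were listed with a median of 3.79 CPM per kb, from the ligand Tgfb1 at 0.815 to the receptor Tgfbr1 at 11.0 CPM per kb. Each of these medians was above that of the matrix genes (1.19 CPM per kb), and none was tested.

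Marker genes placed the matrix levels beside the cells of the liver. The libraries were those of liver, with the hepatocyte genes Apob at 21876 CPM and Apoa1 at 7504 CPM, although Alb, Ttr, Tf, Cps1 and Hnf4a were not listed. Of 8 stellate cell markers 7 were listed, with a median of 5.74 CPM per kb and a range from Ngfr at 1.14 to Dcn at 98.3 CPM per kb. The Kupffer cell list of 8 symbols names 7 genes, Emr1 and Adgre1 being symbols of the same gene, and all 7 were listed with a median of 19.1 CPM per kb. Of 8 sinusoidal endothelial markers, 5 were listed with a median of 15.1 CPM per kb. The listed markers of other matrix-producing cells were low. For portal fibroblasts 2 of 4 were listed, Eln at 0.306 and Fbln2 at 0.464 CPM per kb, and both encode matrix proteins themselves. For smooth muscle 3 of 4 were listed, with a median of 1.60 CPM per kb. Of the leukocyte markers 3 of 6 were listed, with a median of 2.48 CPM per kb, of the cholangiocyte markers 1 of 5 (Spp1, 16.5 CPM per kb), and of the skeletal muscle markers 0 of 3. Fbln2 and Itgal are in both the matrix genes and a marker list. Which cells the matrix mRNAs came from was not tested.

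**Figure D5:**
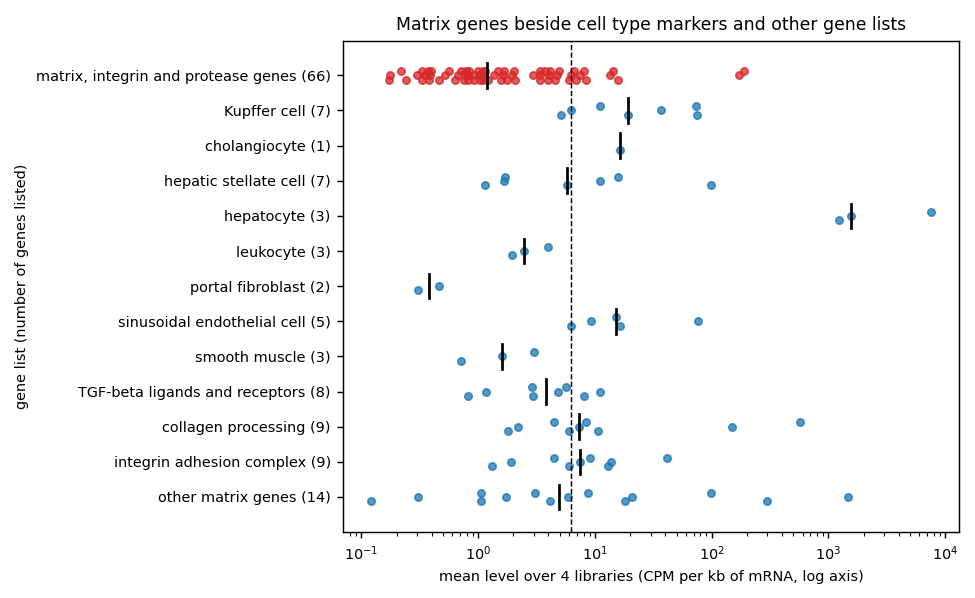
Mean level over the 4 libraries (CPM per kb, log axis) of the 66 matrix, integrin and protease genes (red) and of the listed genes of each other list (blue), with the number listed in brackets. Black bars are medians and the dashed line is the median of all listed genes, and the matrix genes have a median of 1.19 CPM per kb, below those of Kupffer (19.1) and sinusoidal endothelial (15.1) markers.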

How the data were processed

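Liver RNA of 4 mice was depleted of rRNA and made into stranded libraries. Reads were aligned by the authors with Bowtie to the longest RefSeq mRNA of each gene (mm9), and unique alignments were passed to edgeR. The versions of Bowtie and edgeR were not stated. Genes of low CPM were removed by the authors before their comparison. The log2 mean CPM over the 4 libraries and the mRNA length in bases were used as deposited by the authors. The remaining deposited columns hold the authors' own comparison of the diets (log2 fold change, p-value and FDR), and were not used. The rows are sorted by that p-value and end well below its maximum. The planned edgeR test and the omission of each mouse needed counts per mouse, so they were not run.

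The log2 values were converted to CPM and divided by length in kb. Each gene was compared with non-members within 10% of its length. This step was tested on simulated levels that fell with length, with genes drawn at random in place of the members. That setting differs from the data, where the reference median was higher for the longest mRNAs, and the members' own lengths were not simulated. Gene models and coding sequences were from GENCODE vM1 (NCBIM37), and 61 of the 66 genes had a whole coding sequence in a transcript within 10% of the deposited length. Adamts2, Col18a1, Col1a1, Col6a3 and Ltbp1 did not. Promoters were from RefSeq (GRCm38.p6).

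Members and lists were chosen with earlier results of these data known. Every member could be named. The classes were set after the members and their levels had been seen, and merge chain types that the plan kept apart. The searches for Gly-X-Y runs, Arg-Gly-Asp, the zinc signature (His-Glu-X-X-His-X-X-Gly-X-X-His), the 4 promoter motifs and neighbours within 500 kb were also chosen after that. The zinc pattern missed Adamts1 and was then loosened to allow Asn for Gly. Python 3.11.15, numpy 2.4.6, pandas 2.3.3 and matplotlib 3.10.9 were used.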

Additional observations from a re-analysis of the deposited data

How the results depend on the processing

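No value has an error, so any change at the printed precision counts as a move. With a minimum mean of 1 CPM neither median level could change, since the lowest of the 66 genes was at 1.02 CPM. Leaving out Itgb3bp moved the median log2 CPM from 2.986 to 2.997 and the median log2 CPM per kb from 0.25 to 0.29. The median difference from mRNAs of similar length (-1.59) was -1.51 within 25% of the length, -1.63 against the 200 nearest mRNAs and -1.60 with a minimum of 1 CPM, and 17, 15 and 16 genes were above. Nid1 and Timp2 changed side with the 200 nearest, and Adamts13 with the minimum. The rest were chosen after seeing the data. Without Col4a3bp and Itgb3bp, 16 genes were above and no median moved.

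Length mattered more. RefSeq protein length was planned but not used here, so coding length from GENCODE replaced it. The median log2 CPM per kb of coding length was then 0.82 (61 genes), against 3.61 for all genes with a coding length. On the deposited length the median log2 CPM per kb was 0.25 for the 66 genes and 2.63 for all listed genes. Ratios became 1.29 for Col4a1 over Col4a2, 1.88 for Col6a1 over Col6a2, 1.39 for Col5a1 over Col5a2, 0.323, 0.262, 0.362 and 0.0626 for Lamb1, Lamb2, Lama4 and Lama5 over Lamc1, and 0.570 for Itgal over Itgb2. This transcript rule replaced another after its output was seen. The rule used at first took the transcript nearest in length with no limit, and for Col6a1 it chose a short isoform. It gave a median log2 CPM per kb of 0.79. Its ratios were 4.53 for Col6a1 over Col6a2, 0.240 for Col1a1 over Col1a2 and 1.08 for Col6a3 over Col6a2. The other ratios under it were 1.29, 1.39, 0.323, 0.262, 0.362, 0.0626 and 0.570. The ratio of Col6a1 to Col6a2 thus ranged from 1.74 to 4.53, and Col6a3 over Col6a2 crossed 1.

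The omission of each mouse and the diet test were not run, since the table holds no value per mouse. Unknown depth leaves the precision of low levels unknown, and 9 of the 66 genes were under 2 CPM. The authors' filter on CPM also sets a floor near these levels.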

Other observations

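Matrix genes outside the symbol rule spanned a wider range than those within it. Of 28 such genes 14 were listed, with a median of 4.92 CPM per kb. Vtn, which encodes the plasma protein vitronectin made by hepatocytes, had 2564 CPM (1469 CPM per kb), above both Fn1 and Col18a1. The heparan sulfate proteoglycan Sdc4 (syndecan-4) had 297 CPM per kb, the fibril-binding proteoglycan Dcn (decorin) 98.3 CPM per kb and the laminin receptor Dag1 (dystroglycan) 20.7 CPM per kb. At the other end were Eln (elastin) at 0.306 and Svep1 at 0.122 CPM per kb.

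The level of Col1a1 below Col1a2 may be worth a check in other liver data. It was 0.253 per length, 0.240 with the coding length of the transcript nearest in length, and 4.84 against 20.9 CPM with no length correction. Both levels are means over both diets, so the ratio within each diet is unknown. The cause was not tested.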
